A study of Homo sapiens with 44 samples.

Results

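The 8 genes described here encode 2 ubiquitin-like protein modifiers and the enzymes that attach them to or remove them from target proteins. They are ISG15 with its activating enzyme UBA7, its conjugating enzyme UBE2L6, the ligases HERC5 and HERC6 and the protease USP18, and UBD, the gene of the modifier FAT10, with its activating enzyme UBA6. The genes were chosen by name and found through their Ensembl identifiers, so they are 8 of the 33538 genes in the deposited tables, and all 8 were among the 14469 genes with enough reads to be tested. RNA was sequenced from OVCAR5, an established line of human ovarian carcinoma cells, here a CFP-positive derivative carrying a reporter for IFNγ sensing. Cells received both IFNγ at 100 ng/ml and TNFα at 10 ng/ml, IFNγ alone at 0.01, 1 or 100 ng/ml, TNFα alone at 0.1, 1 or 10 ng/ml, medium taken from a co-culture of tumor cells with T cells and diluted 1/20000, 1/200 or 1/2, or no stimulus. Each of these 11 treatments was sampled after 2, 6, 12 and 24 h of continuous exposure, which gives 44 libraries, 1 for each treatment and duration. The cytokine content of the co-culture medium, called supernatant below, was not measured in the data used here. All groups share the same reporter line, the unstimulated cells included, and the labels do not say whether it is a single clone.

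ISG15 and FAT10 are joined to target proteins by a relay like that of ubiquitin: an activating enzyme (E1) loads the modifier, a conjugating enzyme (E2) takes it over and a ligase (E3) directs it to the target. UBA7 and UBE2L6 serve ISG15, HERC5 is its main ligase in human cells, HERC6 is the ISG15 ligase known from mouse, and USP18 takes ISG15 off again and also dampens signalling from the type I interferon receptor. FAT10 consists of a tandem of ubiquitin-like domains and marks proteins for the proteasome, and UBA6, which activates FAT10, also activates ubiquitin. ISG15 and its enzymes are textbook targets of interferons, and UBD is known as a gene that answers IFNγ and TNFα together in epithelial cells.

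Libraries held 9586125 to 16270128 reads assigned to genes, and mitochondrial genes took 7.12% to 9.81% of them. The epithelial identity was plain for EPCAM, which lay between 32.6 and 78.9 CPM (counts per 1e+06 reads of the scaled library), and for the keratin genes KRT7, KRT8, KRT18 and KRT19, CDH1 and PAX8, which had reads in all 44 libraries, while MUC16 and WT1 stayed at or below 3.18 and 0.785 CPM. The summed level of these 9 markers was 2208 to 3408 CPM with both cytokines, 1936 to 3113 CPM with supernatant at 1/2 and 2119 to 3211 CPM with TNFα at 10 ng/ml, against 3173 to 3273 CPM in unstimulated cells, and its part in the results was not tested. Of 7 T-cell markers, CD3E had no read, CD2, CD3D, CD3G, PTPRC and TRAC had 2 or 3 reads each in all libraries together, and CD8A reached 0.929 CPM. Since these are bulk libraries, more cells that express a gene and more RNA per cell cannot be told apart. The labels do not state that the libraries come from separate cultures, so every p-value measures the spread between these libraries around their trends in time, which may be technical.

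Positions are given on GRCh38 (GENCODE release 29). ISG15 (ENSG00000187608) spans chr1:1001138-1014540 on the plus strand, UBA7 (ENSG00000182179) chr3:49805207-49813946 on the minus strand and UBE2L6 (ENSG00000156587) chr11:57551656-57568284 on the minus strand. HERC6 (ENSG00000138642) and HERC5 (ENSG00000138646) follow each other on the plus strand of chromosome 4, at chr4:88378739-88443111 and chr4:88457117-88506163. UBA6 (ENSG00000033178) lies on the minus strand of the same chromosome at chr4:67612652-67701179, USP18 (ENSG00000184979) at chr22:18149899-18177397 on the plus strand and UBD (ENSG00000213886) at chr6:29555515-29559925 on the minus strand. The 3′ part of UBD is overlapped on the opposite strand by OR2I1P, at chr6:29550407-29557721. On its own strand the span of GABBR1, at chr6:29555629-29633976, covers all of UBD but its 3′ end. USP18 has a near-identical copy, USP41, which had at most 2.65 CPM in any library.

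The 250 bases before the start of transcription are shown for ISG15 and UBD, the modifiers themselves, and for the neighbouring ligases HERC5 and HERC6, which lie side by side and were called in opposite directions with TNFα. The sequences are from RefSeq (GRCh38.p14) and read 5′ to 3′ in the direction of the gene. They cover chr1:1013247-1013496 on the plus strand for ISG15, chr6:29559733-29559982 on the minus strand for UBD, chr4:88456869-88457118 on the plus strand for HERC5 and chr4:88378602-88378851 on the plus strand for HERC6. Capitals mark matches on either strand to the ISRE core (GAAA, any 2 bases, GAAA), the interferon-stimulated response element bound by IRF factors, or to the kappa B motif of NF-κB (GGG, any 2 bases, T, any 2 bases, CC).

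ISG15: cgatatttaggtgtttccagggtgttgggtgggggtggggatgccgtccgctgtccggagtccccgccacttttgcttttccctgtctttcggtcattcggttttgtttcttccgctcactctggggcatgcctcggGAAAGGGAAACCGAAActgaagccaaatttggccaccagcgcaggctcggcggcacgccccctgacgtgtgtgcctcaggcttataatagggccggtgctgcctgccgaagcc

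UBD: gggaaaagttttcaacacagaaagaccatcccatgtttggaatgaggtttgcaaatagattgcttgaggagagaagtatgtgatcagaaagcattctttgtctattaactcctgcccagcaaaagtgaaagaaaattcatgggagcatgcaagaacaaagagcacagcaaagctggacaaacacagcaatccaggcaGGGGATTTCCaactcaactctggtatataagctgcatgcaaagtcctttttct

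HERC5: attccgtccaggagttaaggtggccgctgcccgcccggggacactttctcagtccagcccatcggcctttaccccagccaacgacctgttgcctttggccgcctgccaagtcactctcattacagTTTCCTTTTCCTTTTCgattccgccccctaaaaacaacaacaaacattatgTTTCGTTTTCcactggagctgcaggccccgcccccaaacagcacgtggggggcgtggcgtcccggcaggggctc

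HERC6: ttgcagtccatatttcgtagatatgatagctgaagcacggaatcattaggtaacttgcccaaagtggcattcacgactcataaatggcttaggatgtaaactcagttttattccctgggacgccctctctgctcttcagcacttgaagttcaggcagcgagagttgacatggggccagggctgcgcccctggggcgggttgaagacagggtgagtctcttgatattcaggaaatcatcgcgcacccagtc

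RefSeq windows of 300 bases, 250 before and 50 after a start, were on hand for 6 of the 8 genes, and not for UBA7 and USP18. ISG15 held 2 overlapping ISRE cores, starting 113 and 107 bases before the start, which share their middle GAAA. HERC5 held 3, all on the strand opposite to the gene, at 125, 119 and 74 bases before the start, of which the first 2 overlap. The ISRE core was found in 3.57% of 35116 such windows. The UBD window held 1 kappa B match, GGGGATTTCC, 53 bases before the start. UBA6 held 1 kappa B match and UBE2L6 held 1 in the first of its 2 windows, while 22.02% of all windows had at least 1. The GAS motif TTCNNNGAA, the interferon gamma-activated site, was in none of the windows of these 6 genes and in 7.66% of all windows, and the HERC6 window matched none of the motifs. A match in these letters describes the sequence and does not show that a factor binds there.

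ISG15, the modifier, was expressed in every library and was highest with both cytokines at each of the 4 durations. With both cytokines it stood at 48.3, 96.4, 172 and 388 CPM at 2, 6, 12 and 24 h, against 20.99, 36.3, 42.2 and 51.9 CPM in unstimulated cells. With IFNγ at 100 ng/ml the values were 28.7, 77.3, 143 and 194 CPM, with TNFα at 10 ng/ml 38.5, 54.4, 66.6 and 55.3 CPM, and with supernatant at 1/2 25.2, 74.4, 145 and 229 CPM. The TNFα libraries were thus above the IFNγ library at 2 h and below it from 6 h on, and at 24 h TNFα at 10 ng/ml was 1.06-fold the unstimulated level. Unstimulated ISG15 itself was lowest at 2 h, where that library was the lowest of the 11. The fitted change against unstimulated cells, taken at the mean log2 duration, was 1.89 ± 0.12 with both cytokines, 1.30 ± 0.12 with IFNγ at 100 ng/ml, 0.56 ± 0.12 with TNFα at 10 ng/ml and 1.31 ± 0.12 with supernatant at 1/2 (log2 ± SE, edgeR quasi-likelihood test, adjusted p = 1.57e-12, 5.38e-09, 0.00103 and 1.71e-09). In a fit to the 12 h and 24 h libraries alone the change with TNFα was 0.40 (adjusted p = 0.337).

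UBE2L6, the E2 of ISG15, had the highest fitted change with IFNγ among ISG15 and its enzymes. It stood at 29.8, 176, 351 and 478 CPM at 2, 6, 12 and 24 h with IFNγ at 100 ng/ml, against 12.3, 10.6, 15.4 and 28.3 CPM in unstimulated cells. With both cytokines it was at 33.3, 180.4, 401 and 488 CPM, and with supernatant at 1/2 at 27.4, 155, 360.0 and 428 CPM. At 6, 12 and 24 h these 3 treatments lay 14.57- to 26.04-fold above unstimulated cells, with no overlap. TNFα at 10 ng/ml gave 10.8, 29.1, 32.9 and 49.7 CPM, which is below the unstimulated library at 2 h and above it at the later durations. The fitted change was 3.45 ± 0.24 with IFNγ at 100 ng/ml (adjusted p = 4.05e-10) and 3.24 ± 0.24 at 1 ng/ml (adjusted p = 2.09e-09), against 0.75 ± 0.26 with TNFα at 10 ng/ml (adjusted p = 0.0403). Without the unstimulated library of 2 h or 24 h the TNFα value was 1.44 or 1.22 (adjusted p = 0.000421 and 0.00108). It missed the threshold without a filter on low counts (adjusted p = 0.0771) and without the TNFα library of 2, 6 or 24 h or the unstimulated library of 6 or 12 h (adjusted p 0.0966 to 0.183).

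UBA7, the E1 of ISG15, had 4.87, 23.7, 42.1 and 79.0 CPM with IFNγ at 100 ng/ml, against 3.84, 3.88, 4.03 and 9.63 CPM in unstimulated cells. With both cytokines it had 5.31, 19.2, 42.9 and 91.5 CPM, with supernatant at 1/2 3.53, 15.3, 31.98 and 70.9 CPM and with TNFα at 10 ng/ml 3.54, 9.71, 8.44 and 19.1 CPM. At 2 h all 11 libraries lay between 3.53 and 5.32 CPM, and from 6 h on these treatments were above the unstimulated library of the same duration. The unstimulated level at 24 h was itself above the other 3 durations. The fitted change was 2.34 ± 0.18 with IFNγ at 100 ng/ml (adjusted p = 3.4e-10), 2.32 ± 0.19 with both cytokines (adjusted p = 1.38e-10) and 0.80 ± 0.21 with TNFα at 10 ng/ml (adjusted p = 0.00464). Without the unstimulated 2 h library the TNFα value was 1.23 (adjusted p = 0.000473).

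The ligase genes HERC5 and HERC6 differed in direction. HERC5 was highest in unstimulated cells at 2, 6 and 12 h and never exceeded 16.5 CPM, a level of 36 to 193 reads per library. With both cytokines it had 4.73, 4.13, 7.92 and 16.5 CPM, with IFNγ at 100 ng/ml 4.70, 5.61, 4.80 and 13.4 CPM and with TNFα at 10 ng/ml 4.14, 4.04, 7.17 and 9.58 CPM, against 6.17, 6.30, 9.72 and 12.6 CPM in unstimulated cells. All TNFα libraries at 10 ng/ml were below the unstimulated library of the same duration, while the IFNγ and combination libraries were below it at 2, 6 and 12 h and above it at 24 h. Every fitted change of HERC5 was negative, between -0.51 ± 0.18 with TNFα at 10 ng/ml (adjusted p = 0.0403) and -0.13 ± 0.18 with supernatant at 1/20000 (adjusted p = 1). With supernatant at 1/2 it was -0.45 ± 0.18 (adjusted p = 0.0495). DESeq2 with the same design did not call the TNFα or the supernatant value (adjusted p = 0.0576 and 0.0734), and no filter on low counts gave adjusted p = 0.059 and 0.074. Each of the 2 calls was also lost without any of 6 libraries, with adjusted p 0.0632 to 0.246 for TNFα (its 2, 6 or 24 h library or the unstimulated one of 2, 6 or 12 h) and 0.0616 to 0.174 for the supernatant (its 6, 12 or 24 h library or the unstimulated one of 2, 6 or 12 h). The level of HERC5 was higher at 24 h than at 2 h in 11 of 11 treatments, by 1.95- to 4.33-fold, and the lowest library at 24 h, at 9.58 CPM, stood above the highest at 2 h, at 6.17 CPM.

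HERC6, its neighbour, rose with the cytokines. It had 6.75, 16.5, 32.7 and 41.9 CPM with both cytokines and 7.18, 12.9, 23.1 and 27.5 CPM with IFNγ at 100 ng/ml, against 5.64, 9.30, 7.35 and 8.13 CPM in unstimulated cells. TNFα at 10 ng/ml gave 6.21, 12.6, 14.8 and 17.7 CPM, so that both single cytokines exceeded the unstimulated library at every duration. The fitted changes were 1.38 ± 0.12 with both cytokines (adjusted p = 1.19e-10), 1.04 ± 0.12 with IFNγ (adjusted p = 1.05e-07) and 0.66 ± 0.12 with TNFα (adjusted p = 0.000116).

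USP18, the protease that removes ISG15, was raised most by both cytokines. With both cytokines it had 3.57, 24.6, 39.01 and 69.6 CPM at 2, 6, 12 and 24 h, against 2.71, 3.30, 2.71 and 3.80 CPM in unstimulated cells. With IFNγ at 100 ng/ml it had 4.02, 15.4, 22.2 and 28.6 CPM, with TNFα at 10 ng/ml 3.19, 7.91, 6.48 and 7.68 CPM and with supernatant at 1/2 3.79, 15.7, 22.7 and 33.4 CPM. At 2 h all libraries lay between 2.71 and 4.47 CPM, and from 6 h on the library with both cytokines was the highest of the 11. The fitted changes were 2.86 ± 0.18 with both cytokines, 2.19 ± 0.18 with IFNγ and 0.95 ± 0.20 with TNFα (adjusted p = 4.42e-13, 4.32e-10 and 0.000643). Reads that fit both USP18 and USP41 can be assigned to either gene, so the split is uncertain; with both cytokines at 24 h USP41 had 25 reads, 2.65 CPM, beside 69.6 CPM of USP18. On the authors' TPM scale the same 25 reads stood at 323.5 TPM, beside 35.9 TPM of USP18, so the 2 scales order these copies differently.

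**Figure D1:**
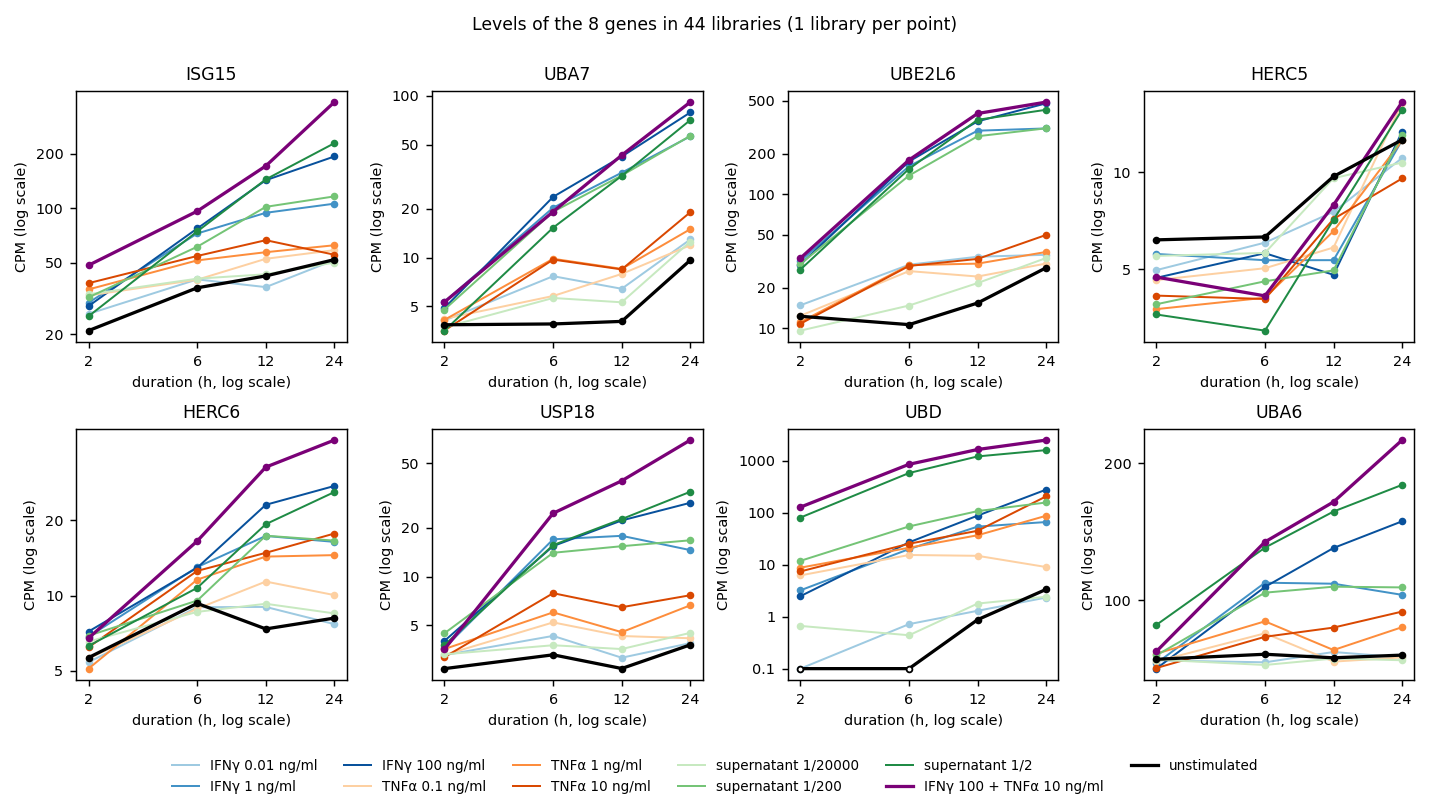
CPM (log scale) of the 8 genes against duration in hours (log scale), 1 point for each of the 44 libraries, with lines joining the 4 durations of a treatment. Open points at 0.1 stand for libraries without a read. UBD with both cytokines reaches 2504 CPM at 24 h, against 3.36 CPM in unstimulated cells, and HERC5 is higher at 24 h than at 2 h in all 11 treatments.

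UBD, the gene of FAT10, had the widest range of the 8 genes, 0 to 23608 reads in a library. With both cytokines UBD stood at 128, 857, 1649.7 and 2504 CPM at 2, 6, 12 and 24 h, with supernatant at 1/2 at 80.8, 582, 1214 and 1606 CPM, with IFNγ at 100 ng/ml at 2.48, 26.98, 88.0 and 279 CPM and with TNFα at 10 ng/ml at 7.42, 25.4, 44.96 and 207 CPM. Unstimulated cells had 0 reads at 2 h and 6 h, 10 reads or 0.875 CPM at 12 h and 38 reads or 3.36 CPM at 24 h. The library with both cytokines was the highest and that with supernatant at 1/2 the next highest at every duration. Against a floor of 3 reads in the unstimulated library of the same duration, both cytokines gave a level at least 568-fold higher at 2 h and at least 3898-fold higher at 6 h. At 12 h and 24 h the ratio was 1885 and 746, and the smaller ratio at 24 h came with the higher unstimulated level.

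The doses of TNFα and IFNγ separated UBD further. TNFα at 0.1 ng/ml gave 6.23, 15.4, 14.8 and 9.02 CPM of UBD, with the highest level at 6 h. TNFα at 1 ng/ml gave 8.77, 21.2, 36.9 and 87.5 CPM and IFNγ at 1 ng/ml 3.21, 20, 54.1 and 66.3 CPM. Supernatant at 1/200 gave 11.9, 54.6, 108 and 158 CPM, above IFNγ at 1 ng/ml at every duration. IFNγ at 0.01 ng/ml, with 0, 0.719, 1.30 and 2.33 CPM, and supernatant at 1/20000, with 0.664, 0.439, 1.79 and 2.42 CPM, overlapped the unstimulated range of 0 to 3.36 CPM over all durations. At equal duration both were above the unstimulated library at 6 and 12 h, and the supernatant also at 2 h, on 5 to 22 reads. Both were below it at 24 h. The fitted changes of UBD were 12.20 ± 0.46 with both cytokines, 11.63 ± 0.46 with supernatant at 1/2, 8.36 ± 0.57 at 1/200, 7.64 ± 0.66 with IFNγ at 100 ng/ml, 7.64 ± 0.65 with TNFα at 10 ng/ml and 5.97 ± 0.79 with TNFα at 0.1 ng/ml (adjusted p = 6.55e-15, 2.04e-14, 9.15e-10, 1.46e-08, 1.27e-08 and 4.47e-05). Because the unstimulated libraries of 2 h and 6 h hold no read, these log2 values rest on a fitted level near 0 and are no bounds.

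UBA6, the E1 of FAT10, changed by small factors with narrow errors. With both cytokines it had 77.2, 134, 164 and 225 CPM, with supernatant at 1/2 88.2, 130.5, 157 and 179 CPM, with IFNγ at 100 ng/ml 70.8, 107, 130.2 and 149 CPM and with TNFα at 10 ng/ml 71.0, 83.1, 87.1 and 94.4 CPM, against 74.2, 76.1, 74.7 and 75.8 CPM in unstimulated cells. From 6 h on all of these exceeded every unstimulated library. The fitted changes were 0.90 ± 0.06, 0.83 ± 0.06, 0.55 ± 0.06 and 0.15 ± 0.06 in that order (adjusted p = 7.09e-13, 3.15e-12, 3.6e-08 and 0.0645), so that the change with TNFα alone did not pass the test.

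On the authors' TPM scale, which corrects for transcript length and lets genes be set beside each other, the order of the 8 messages depended on the treatment. The split of reads between USP18 and USP41 is uncertain, but the reads assigned to USP41 were few. At 24 h USP18 and USP41 had 656 and 25 reads with both cytokines, and 43 and 2 in unstimulated cells. With both cytokines at 24 h UBD had the highest level of the 8, 2899 TPM, which ranked 32 of all 33538 genes of that library. ISG15 followed with 814 TPM and rank 146, UBE2L6 with 487, UBA6 with 86.6, UBA7 with 65.0, USP18 with 35.9, HERC6 with 11.5 and HERC5 with 5.79 TPM. In unstimulated cells at 24 h ISG15 led with 124 TPM, followed by UBA6 with 45.5, UBE2L6 with 36.3 and UBA7 with 7.84 TPM. HERC5 had 4.72, UBD 4.42, HERC6 2.60 and USP18 2.23 TPM. In that library UBA6 had 45.5 TPM at 75.8 CPM, and in the unstimulated 12 h library 30.2 TPM at 74.7 CPM. The TPM of UBA6 thus moved at a like CPM, so its place beside UBE2L6 is uncertain.

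The first comparison asks which of the genes answer each stimulus. With IFNγ at 100 ng/ml 7 of the 8 genes rose, and HERC5 did not pass the test; 9.38% of all tested genes were called higher in that comparison. IFNγ at 1 ng/ml raised 7 as well, HERC5 again excepted (5.54% of all genes), with changes from 0.37 ± 0.06 for UBA6 to 7.03 ± 0.69 for UBD. At 0.01 ng/ml edgeR called none of the 8 (0.0415% of all genes in either direction), and neither did DESeq2. UBE2L6 and UBA7, at 0.76 ± 0.26 and 0.52 ± 0.21, were the 2 with an unadjusted edgeR p under 0.05 (0.00753 and 0.0182). In DESeq2 the UBD change, 1.71 ± 0.71, was also more than 2 SE above unstimulated cells. The median change of the 8 was 1.75 at 100 ng/ml, 1.44 at 1 ng/ml and 0.14 at 0.01 ng/ml, while the median of all genes was -0.01, 0.00 and 0.00. Without the unstimulated 2 h library UBE2L6 was called at 0.01 ng/ml too (1.45, adjusted p = 0.0192).

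TNFα was tested at 3 doses. At 10 ng/ml 6 rose (14.3% of all genes), HERC5 fell (10.1% of all genes called lower) and UBA6 did not pass. At 1 ng/ml 5 rose (11.5% of all genes), namely ISG15, UBA7, HERC6, USP18 and UBD, with UBE2L6 at 0.63 ± 0.26 and adjusted p = 0.0995. Without the unstimulated 2 h library ISG15 and HERC6 left that list (adjusted p = 0.0561 and 0.0921) and UBE2L6 joined it (adjusted p = 0.00135). USP18 left it without the TNFα library of 2 h or 24 h or the unstimulated one of 6 h or 12 h (adjusted p 0.0672 to 0.165), and without the unstimulated 24 h library UBE2L6 and, in the lower direction, HERC5 were called (adjusted p = 0.00329 and 0.0386). At 0.1 ng/ml UBD alone rose (4.02% of all genes). The unstimulated library of 2 h or that of 24 h decides this count: without either, UBA7 and UBE2L6 passed too. In a fit to the 12 h and 24 h libraries alone UBD at 0.1 ng/ml was at 2.65 (adjusted p = 0.349).

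Supernatant at 1/2 raised 7 of the 8 (22.6% of all genes) and HERC5 was called lower (20.8% of all genes). At 1/200 all but HERC5 rose, 7 of the 8 (7.12% of all genes), from 0.37 ± 0.06 for UBA6 to 8.36 ± 0.57 for UBD. At 1/20000 edgeR called none (0.00691% of all genes in either direction), and no member had an unadjusted edgeR p under 0.05. DESeq2 called none either, but its UBD change, 2.54 ± 0.67, was more than 2 SE above unstimulated cells (adjusted p = 0.222). With both cytokines 7 rose and HERC5, at -0.21 ± 0.18, did not pass (23.5% of all genes). The plot of fitted changes shows the members side by side.

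**Figure D2:**
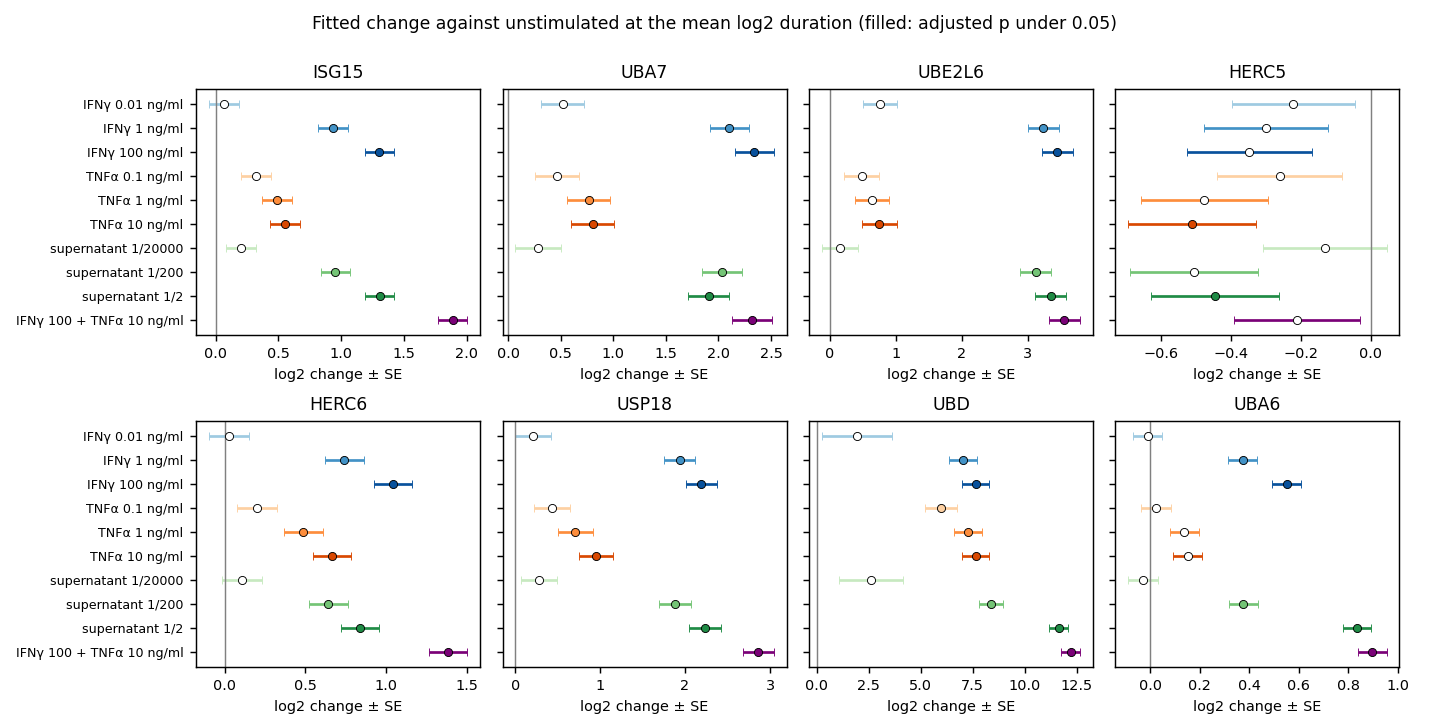
Fitted log2 change ± SE of each gene against unstimulated cells at the mean log2 duration (horizontal axis, a scale of its own for each gene) for the 10 treatments (vertical axis). Filled points passed adjusted p under 0.05. UBD reaches 12.20 with both cytokines, and all HERC5 points lie below 0.

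IFNγ and TNFα were then set against each other at their highest doses. With IFNγ at 100 ng/ml 6 of the 8 genes were higher than with TNFα at 10 ng/ml (11.1% of all genes): UBE2L6 by 2.70 ± 0.23, UBA7 by 1.54 ± 0.17, USP18 by 1.24 ± 0.17, ISG15 by 0.75 ± 0.11, UBA6 by 0.40 ± 0.06 and HERC6 by 0.37 ± 0.11 (adjusted p = 7.23e-09, 1.45e-07, 1.96e-06, 1.46e-05, 4.91e-06 and 0.0147). HERC6 lost the call without any of 4 libraries (adjusted p 0.0622 to 0.236), those of IFNγ at 2 h or 24 h or of TNFα at 2 h or 12 h. HERC5 differed by 0.16 ± 0.19 (adjusted p = 0.604). UBD, in contrast, had a fitted difference of 0.00 (adjusted p = 1). DESeq2 put this difference at -0.10, with a 95% interval of -0.74 to 0.55, so that a difference of either sign is within the error. By duration, UBD with IFNγ was 0.334, 1.06, 1.96 and 1.35 times the level with TNFα at 2, 6, 12 and 24 h.

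The combination was compared with each cytokine alone. Against IFNγ at 100 ng/ml 5 of the 8 were higher (16.1% of all genes): UBD by 4.56 ± 0.26, USP18 by 0.67 ± 0.16, ISG15 by 0.58 ± 0.11, UBA6 by 0.35 ± 0.06 and HERC6 by 0.35 ± 0.11 (adjusted p = 2.32e-11, 0.00164, 0.000227, 3.39e-05 and 0.019). The enzymes UBA7 and UBE2L6 differed by -0.02 ± 0.16 and 0.11 ± 0.20 (adjusted p = 0.948 and 0.747; 95% intervals -0.35 to 0.32 and -0.31 to 0.52). HERC6 lost its call without the IFNγ library of 6 h or the combination library of 2 h or 12 h (adjusted p 0.0554 to 0.128), and in a fit to the 12 h and 24 h libraries alone the ISG15 difference was 0.70 (adjusted p = 0.0512). Without the combination library of 2 h the ISG15 difference was 0.33 (adjusted p = 0.0327). Against TNFα at 10 ng/ml all but HERC5 were higher, 7 of the 8 (12.5% of all genes), from 0.72 ± 0.11 for HERC6 to 4.56 ± 0.26 for UBD.

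**Figure D3:**
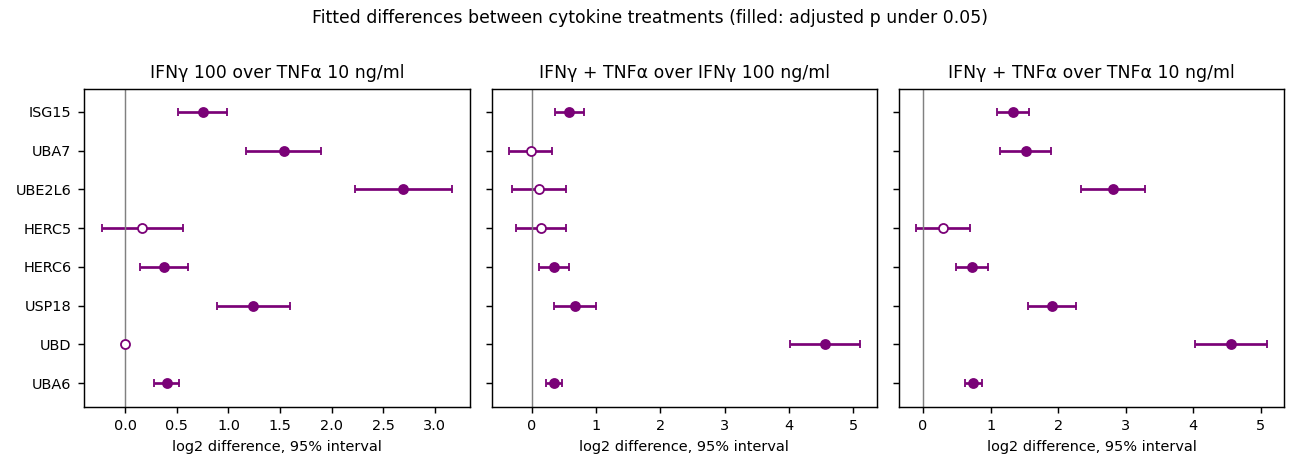
Fitted log2 differences with 95% intervals between cytokine treatments (horizontal axes) for the 8 genes (vertical axis), in 3 panels. Filled points passed adjusted p under 0.05, and no interval is drawn for UBD in the first panel, where the difference is 0.00. UBD exceeds both single cytokines by 4.56 in the other panels, whereas UBA7 and UBE2L6 lie at -0.02 and 0.11 against IFNγ alone.

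On a linear scale the UBD level with both cytokines was far above the sum of the 2 single rises. That sum, added to the unstimulated level, came to 9.89, 52.3, 132 and 483 CPM at 2, 6, 12 and 24 h, and the measured level was 12.96, 16.4, 12.5 and 5.19 times as high. ISG15 was at 1.05, 1.01 and 1.02 times its sum at 2, 6 and 12 h and at 1.97 times at 24 h. USP18 was at 0.793, 1.23, 1.501 and 2.15 times its sum, and UBA6 at 1.14 to 1.34 times. UBE2L6 and UBA7 lay at 0.929 to 1.17 and 0.650 to 1.16 times, and HERC6 at 0.872 to 1.13 times. HERC5 was at 1.77, 1.23, 3.51 and 1.601 times its sum, which lay below the unstimulated level at every duration, at 2.67, 3.35, 2.26 and 10.3 CPM. These ratios compare single libraries and carry no test. The test of the interaction on the log scale, which asks whether the 2 fold changes multiply, called none of the 8 with edgeR (0.525% of all genes). UBA7, HERC5, UBD and UBA6 were the members with an unadjusted p under 0.05 (0.00408, 0.0195, 0.0203 and 0.0256). For UBD it was -3.08 ± 1.22 (adjusted p = 0.367), a rise smaller than the product of the 2 single rises, and DESeq2 called it (-3.09 ± 0.71, adjusted p = 0.00445). That product rests on the unstimulated libraries with no read. UBA7 was called without the unstimulated 24 h library (-1.17, adjusted p = 0.0424).

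**Figure D4:**
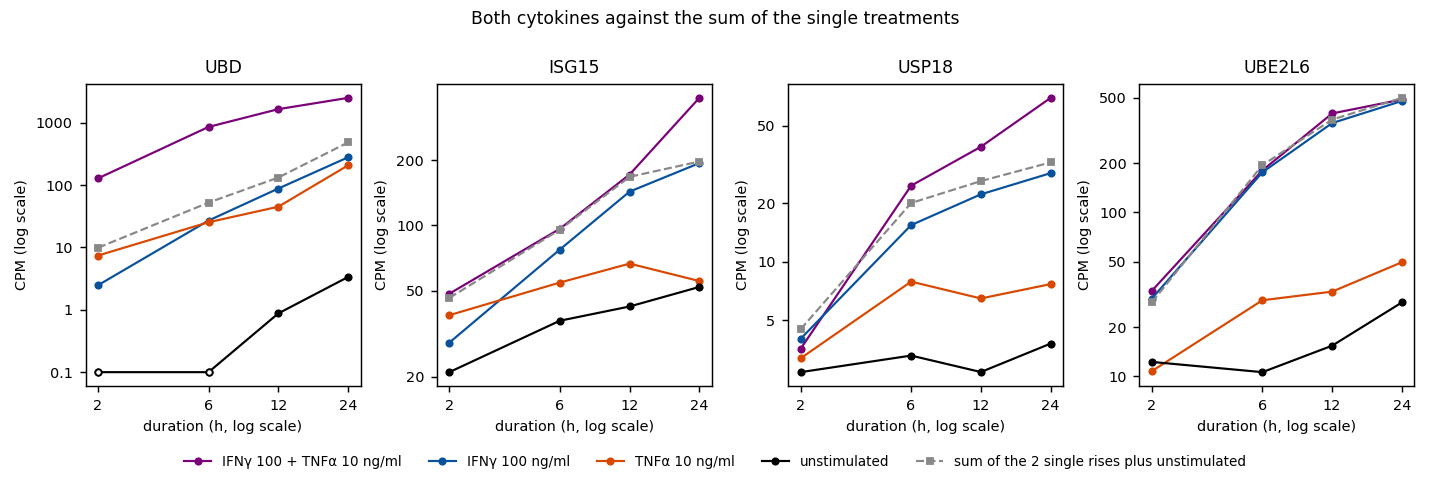
CPM (log scale) against duration in hours (log scale) of UBD, ISG15, USP18 and UBE2L6 with both cytokines, with IFNγ or TNFα alone and without stimulus, 1 library per point; the dashed line is the sum of the 2 single rises plus the unstimulated level. Open points at 0.1 stand for 0 reads. The UBD level lies 5.19 to 16.4 times above the dashed line, and the UBE2L6 level stays within 0.929 to 1.17 times of it.

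Genes of type I and type III interferons, which would themselves induce the ISG15 system, were at low levels. None of 7 such genes passed the filter on low counts: IFNE had 157 reads over 41 libraries and at most 1.27 CPM, IFNL1 had 55 reads over 16 libraries and IFNB1 had 4 reads over 3. Their summed level was 0.718 to 3.5004 CPM with both cytokines and 0.0855 to 0.762 CPM with IFNγ at 100 ng/ml, against 0.0752 to 0.177 CPM in unstimulated cells. Their part in the 24 h levels of ISG15 and USP18 was not tested.

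Dose steps were compared within each cytokine. Between IFNγ at 100 and at 1 ng/ml edgeR called none of the 8 (0.173% of all genes in either direction), and DESeq2 called none. In the edgeR fit all but HERC5 were higher at 100 ng/ml, by 0.18 ± 0.06 for UBA6 to 0.61 ± 0.30 for UBD. ISG15, HERC6 and UBA6 had an unadjusted edgeR p under 0.05 (0.00311, 0.013 and 0.00484). In DESeq2 the UBD step, 0.69 ± 0.33, was also more than 2 SE. UBD at 100 ng/ml was 0.772, 1.35, 1.63 and 4.21 times its level at 1 ng/ml at 2, 6, 12 and 24 h. Between TNFα at 10 and at 0.1 ng/ml UBD differed by 1.67 ± 0.31 and HERC6 by 0.46 ± 0.12 (adjusted p = 0.00246 and 0.0233), 2 of the 8 (3.16% of all genes). UBD lost this call without the 2 h library of either dose (adjusted p = 0.134 and 0.0568), and HERC6 without the 2 h, 6 h or 24 h library of either dose. By duration the step in UBD was 1.19-, 1.65-, 3.03- and 22.96-fold.

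Supernatant at 1/2 was compared with the combination of the 2 recombinant cytokines. ISG15, HERC6 and USP18 were lower with the supernatant, 3 of the 8 (3.95% of all genes called lower), with differences of -0.58 ± 0.11, -0.55 ± 0.11 and -0.62 ± 0.16 (adjusted p = 0.00157, 0.00259 and 0.012). Without the combination library of 2 h the ISG15 difference was -0.33 (adjusted p = 0.0838), and without that of 6 h the USP18 difference was -0.56 (adjusted p = 0.0651). UBD differed by -0.57 ± 0.20 (adjusted p = 0.0916; 95% interval -0.99 to -0.14) and was at 0.630, 0.679, 0.736 and 0.641 times the level with both cytokines at the 4 durations. UBA6 and UBE2L6 differed by -0.06 ± 0.06 and -0.21 ± 0.20 (adjusted p = 0.581 and 0.594; 95% intervals -0.18 to 0.06 and -0.62 to 0.21).

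Slopes summarised how the change against unstimulated cells moved with duration. The slope per doubling of duration was positive and called for 6 of the 8 genes with IFNγ at 100 ng/ml (2.52% of all genes), for 6 with supernatant at 1/2 (8.34% of all genes) and for 6 with both cytokines (11.1% of all genes). These were ISG15, UBA7, UBE2L6, HERC6, USP18 and UBA6 in each case. A positive slope did not mean a steady widening. With IFNγ at 100 ng/ml the ratio to unstimulated cells was 22.8 at 12 h and 16.9 at 24 h for UBE2L6, 10.5 and 8.20 for UBA7 and 8.19 and 7.52 for USP18. Under both cytokines it was 26.04 at 12 h and 17.3 at 24 h for UBE2L6 and 10.7 and 9.51 for UBA7, so these ratios were lower at 24 h than at 12 h. With both cytokines the slopes were 1.04 ± 0.15 for USP18, 0.79 ± 0.15 for UBA7, 0.73 ± 0.19 for UBE2L6, 0.65 ± 0.09 for HERC6, 0.48 ± 0.09 for ISG15 and 0.42 ± 0.04 for UBA6 (adjusted p = 1.89e-05, 0.000556, 0.00751, 1.29e-05, 0.000324 and 1.98e-07). With TNFα at 10 ng/ml edgeR and DESeq2 called no slope among the 8 (2.68% of all genes in either direction with edgeR). HERC6 and UBA6 had an unadjusted edgeR p under 0.05 (0.00356 and 0.0235). In DESeq2 the TNFα slopes of UBD and ISG15, -1.33 ± 0.48 and -0.19 ± 0.09, were also beyond 2 SE (adjusted p = 0.108 and 0.297). The edgeR slope calls depend on the unstimulated 2 h library. Without it the counts of slopes were 0 with IFNγ, 2 with supernatant and 3 with both cytokines, and the UBE2L6 slope was 0.08, 0.08 and 0.06. With IFNγ the count was 2 without its own 2 h library. Over all genes the slopes called in either direction without that unstimulated library came to 43, 460 and 674, against 496, 2351 and 3116 with it. Without the unstimulated 24 h library the UBE2L6 slopes were 1.23, 1.23 and 1.21 (adjusted p = 0.000814, 0.000362 and 0.000301). The UBD slopes were negative, at -1.56 ± 0.94 with both cytokines (adjusted p = 0.258), beside an unstimulated level of 0 reads at 2 h and 6 h; DESeq2 called this slope and that with supernatant at 1/2 (adjusted p = 0.0184 and 0.0249).

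The 11 treatments were ordered by their fitted levels, and neighbours in that order were compared. For ISG15 the order by fitted level was both cytokines, supernatant at 1/2, IFNγ at 100 ng/ml, supernatant at 1/200, IFNγ at 1 ng/ml, TNFα at 10, 1 and 0.1 ng/ml, supernatant at 1/20000, IFNγ at 0.01 ng/ml and unstimulated. Steps beyond 2 SE were found after both cytokines (0.58 ± 0.11), between IFNγ at 100 ng/ml and supernatant at 1/200 (0.35 ± 0.11) and between IFNγ at 1 ng/ml and TNFα at 10 ng/ml (0.38 ± 0.11). For UBE2L6 the 5 treatments of both cytokines, IFNγ at 100 and 1 ng/ml and supernatant at 1/2 and 1/200 did not differ from their neighbours by more than 2 SE, and a step of 2.36 ± 0.22 separated them from the other 6. UBA7 and USP18 had such a step in the same place, of 1.102 ± 0.183 and 0.927 ± 0.173 above TNFα at 10 ng/ml. For UBD the steps beyond 2 SE were those between both cytokines and supernatant at 1/2 (0.57 ± 0.20), between supernatant at 1/2 and 1/200 (3.27 ± 0.23), between supernatant at 1/200 and TNFα at 10 ng/ml (0.72 ± 0.27), between IFNγ at 1 ng/ml and TNFα at 0.1 ng/ml (1.06 ± 0.31) and between TNFα at 0.1 ng/ml and supernatant at 1/20000 (3.35 ± 0.52). HERC5 had no neighbours that differed beyond 2 SE.

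Among other genes of the modifier pathways, a list of 22 partners of ISG15 and FAT10 had 21 members tested. With both cytokines 8 rose and 3 fell (median 0.10), with supernatant at 1/2 8 rose and 4 fell (median 0.09), with TNFα at 10 ng/ml 6 rose and 1 fell (median 0.06) and with IFNγ at 100 ng/ml 3 rose and 1 fell (median 0.02). In the same order 23.5%, 22.6%, 14.3% and 9.38% of all genes were called higher and 22.4%, 20.8%, 10.1% and 6.47% lower. The shares of the 21 partners that fell were near or somewhat below those of all genes, and the list was not tested as a set. NUB1, which binds FAT10 and speeds its breakdown, rose by 1.78 ± 0.22 with both cytokines and by 1.54 ± 0.22 with IFNγ, and was at 0.22 ± 0.23 with TNFα (adjusted p = 7.72e-07, 2.12e-05 and 0.526). TRIM25, a ubiquitin ligase that also transfers ISG15, rose by 1.09 ± 0.05, 0.67 ± 0.05 and 0.44 ± 0.05 (adjusted p = 1.35e-16, 1.32e-11 and 4.65e-08). UBE2Z, the E2 that takes ubiquitin and FAT10 from UBA6, rose by 0.95 ± 0.08, 0.27 ± 0.08 and 0.46 ± 0.08 (adjusted p = 1.33e-10, 0.0154 and 5.76e-05). SKP2 fell by 0.76 on the log2 scale with both cytokines (SE 0.11, adjusted p = 1.1e-06).

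For the lists that follow the same shares of all genes apply, 23.5% higher and 22.4% lower with both cytokines, 9.38% higher with IFNγ at 100 ng/ml and 14.3% higher with TNFα at 10 ng/ml. Of 13 other ubiquitin-like modifiers, such as NEDD8 and the SUMO genes, 5 rose with both cytokines (median 0.12) and 2 with TNFα at 10 ng/ml (median 0.08), the second a share near that of all genes. GABARAPL1, an autophagy modifier, rose most, by 1.43 ± 0.21 (adjusted p = 4.49e-06). Of 8 other E1 genes 3 rose and 3 fell with both cytokines, with ATG7 the largest change at 0.70 ± 0.08 (adjusted p = 2.39e-08). Of the 4 other HERC genes listed, HERC3 and HERC4 rose with both cytokines, by 0.69 ± 0.12 and 0.42 ± 0.11 (adjusted p = 1.44e-05 and 0.0019). The signalling genes upstream moved with the treatments: of 14 interferon signalling genes 14 rose with both cytokines, 9 with IFNγ and 11 with TNFα, with IRF1 up by 5.06 ± 0.35, 4.49 ± 0.34 and 1.54 ± 0.32 (adjusted p = 1.19e-10, 2.22e-09 and 0.00108). Of 7 NF-κB genes 7, 1 and 7 rose.

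The patterns over the 44 libraries, compared by Pearson's r of log2 CPM, were alike for 7 of the genes, with r from 0.752 to 0.961 between any pair. HERC5 had r from 0.153 with UBD to 0.498 with UBA7. These libraries share durations and treatments, so r describes the pattern and carries no test. Among 13160 other tested genes with a mean log2 CPM of at least 0, the nearest were ISG20 for ISG15 (r = 0.966), BTN3A1 for UBA7 (0.981), PSMB8 for UBE2L6 (0.989), IFI44 for HERC6 (0.960), MOV10 for USP18 (0.977), OR2I1P for UBD (0.978) and CASP4 for UBA6 (0.971). Apart from OR2I1P, UBD was nearest to SLFN5 (0.936), CXCL11 (0.930), TAPBP (0.926) and RIGI (0.926).

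OR2I1P, an olfactory receptor locus, lies on the strand opposite to UBD and overlaps its 3′ part. It had 50.3, 399, 806 and 1245 CPM with both cytokines, against 0.0752, 0.220, 0.525 and 1.68 CPM in unstimulated cells. Its reads came to 0.392 to 0.497 times those of UBD with both cytokines and to 0.417 to 0.593 times with supernatant at 1/2. The library kit keeps the strand, per the labels' protocols, but the strand setting of the counting is not given in the sources used here, so reads of the 2 genes cannot be told apart in the stretch they share. GABBR1, on the UBD strand, had 23.9, 27.6, 28.5 and 53.6 CPM with both cytokines, against 20.3, 21.02, 26.2 and 33.3 CPM in unstimulated cells, a change of 0.36 ± 0.10 (adjusted p = 0.00285).

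**Figure D5:**
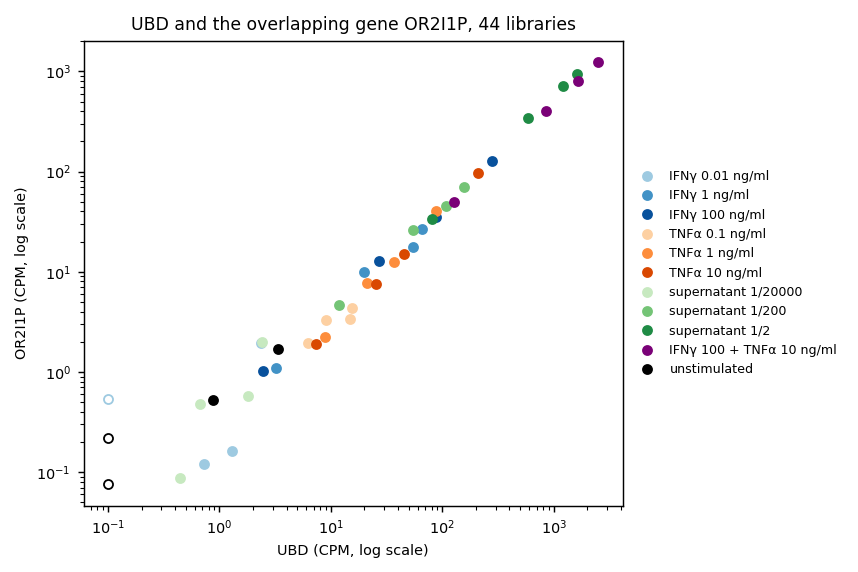
OR2I1P against UBD in CPM (log scales) in the 44 libraries, coloured by treatment; open points at 0.1 on the horizontal axis stand for libraries with 0 UBD reads. The points run along a line over the whole range, up to 1245 CPM of OR2I1P and 2504 CPM of UBD.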

How the data were processed

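Poly(A) RNA of 44 OVCAR5 libraries was prepared with a stranded TruSeq mRNA kit, per the labels' protocols. The authors deposited expected counts and TPM per Ensembl gene; the submitters' processing notes name GRCh38, STAR and Salmon, and the strand setting is not given in the sources used here. Expected counts, of which 18.58% to 20.57% per library were fractional, were rounded. Of 33538 identifiers 33113 were named from a gene table and 343 from GENCODE release 29. Genes with enough reads (filterByExpr by treatment, minimum count 10, total 15) came to 14469. They were fitted with edgeR 4.0.16 (R 4.3.3, limma 3.58.1; TMM factors 0.896 to 1.081, robust quasi-likelihood F test) with duration as a factor, treatment, and a slope of each treatment on centred log2 duration, which leaves 20 residual degrees of freedom. P-values were adjusted by Benjamini-Hochberg over all tested genes, and adjusted p under 0.05 was called. An SE is the fitted change divided by the square root of its F. DESeq2 1.42.0, RLE scaling, no low-count filter, no slopes, fits to 2 durations, fits to the compared libraries and leaving out each library were alternatives. The fit was tested on simulated data: of 100 genes changed by 1 on the log2 scale 97 were recovered for IFNγ at 100 ng/ml (14059 genes).

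All 8 members are named. Other genes are named where they belong to a list of partners, related genes or markers, overlap a member or are its near-identical copy, or are among the 5 genes whose log2 CPM (prior count 2) correlates best with a member's over the 44 libraries, among tested genes with a mean log2 CPM of at least 0. The members and lists were chosen with earlier results of these data known. Results that need a few withheld genes are not reported here. The floor of 3 reads covers counting error only, while SEs and intervals come from the fits and include the spread between libraries. The labels give no sequencing pool, so no batch could be examined.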

Additional observations from a re-analysis of the deposited data

Results flagged for a closer look

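Of 88 groups of 4 libraries (each gene's unstimulated levels, or its log2 ratios to unstimulated cells in a treatment), 5 held a library far from the other 3; chance alone marks about 1 group in 20. The 4 libraries of a group differ in duration. UBA7 in unstimulated cells stood at 3.28 at 24 h on the log2 CPM scale, with the others at 1.98 to 2.04. UBE2L6 with IFNγ at 100 ng/ml had a log2 ratio of 1.27 at 2 h, with the others at 4.03 to 4.49. HERC6 with IFNγ at 0.01 ng/ml had 0.29 at 12 h, with the others at -0.08 to -0.05. UBA6 with TNFα at 0.1 ng/ml had 0.15 at 6 h, with the others at -0.03 to -0.02, and with supernatant at 1/200 it had 0.03 at 2 h, with the others at 0.45 to 0.52.

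The effect of a treatment differed between durations, by the edgeR test of its slope per doubling of duration, for 6 genes in 3 treatments. With IFNγ at 100 ng/ml the slopes were 0.42 for ISG15, 0.70 for UBA7, 0.75 for UBE2L6, 0.46 for HERC6, 0.67 for USP18 and 0.30 for UBA6. With supernatant at 1/2 they were 0.54, 0.82, 0.76, 0.49, 0.75 and 0.28 for the same genes in that order. With both cytokines they were 0.48, 0.79, 0.73, 0.65, 1.04 and 0.42. Of all tested genes 2.52%, 8.34% and 11.1% had a slope called higher in these 3 treatments. Without the unstimulated 2 h library 0, 2 and 3 of the 8 genes kept a called slope. Over all genes the slopes called without that library were 43, 460 and 674, against 496, 2351 and 3116 with it.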

How the results depend on the processing

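Duration entered every fit as a factor, which pairs the libraries of the same duration. The labels number no replicates, so no other pairing was possible. No result of the 8 genes changed sign in a called direction under any alternative run. Counts of the 8 genes called are followed in brackets by the calls over all genes under the same alternative. In the reported fit the calls over all genes were 1089 for IFNγ at 1 ng/ml, 2293 at 100 ng/ml, 813 for TNFα at 0.1 ng/ml, 2734 at 1 ng/ml, 3535 at 10 ng/ml, 1569 for supernatant at 1/200, 6281 at 1/2, 6644 for both cytokines, 4273 for both against IFNγ, 3439 for both against TNFα, 3555 for IFNγ against TNFα, 551 for TNFα at 10 against 0.1 ng/ml and 1223 for supernatant at 1/2 against both. Without slopes the count was 4 (383) for IFNγ at 1 ng/ml, 7 (1189) at 100 ng/ml, 1 (215) for TNFα at 0.1 ng/ml, 1 (1540) at 1 ng/ml, 2 (2395) at 10 ng/ml, 4 (520) for supernatant at 1/200, 1 (3065) for both against IFNγ, 7 (2140) for both against TNFα, 3 (2655) for IFNγ against TNFα, 0 (12) for the TNFα doses and 0 (442) for supernatant against both. With the 2 h and 6 h libraries alone it was 1 (51) for IFNγ at 1 and 1 (79) at 100 ng/ml, 1 (238) for TNFα at 0.1, 2 (556) at 1 and 2 (758) at 10 ng/ml, 1 (47) for supernatant at 1/200, 3 (1450) at 1/2, 4 (1661) for both cytokines, 1 (689) for both against IFNγ, 1 (76) for both against TNFα, 0 (825) for IFNγ against TNFα, 0 (1) for the TNFα doses and 0 (32) for supernatant against both. With the 12 h and 24 h libraries alone it was 7 (613) for IFNγ at 1 ng/ml, 0 (4) for TNFα at 0.1 ng/ml, 4 (1400) at 1 ng/ml, 1 (384) for the TNFα doses and 2 (569) for supernatant against both. With only the libraries compared it was 3 (254) for IFNγ at 1 ng/ml, 1 (252) at 100 ng/ml, 0 (66) for TNFα at 0.1 ng/ml, 3 (958) at 1 ng/ml, 4 (1382) at 10 ng/ml, 4 (413) for supernatant at 1/200, 4 (1188) at 1/2, 5 (1229) for both cytokines, 3 (1154) for both against IFNγ, 2 (155) for both against TNFα, 3 (1077) for IFNγ against TNFα, 0 (33) for the TNFα doses and 1 (69) for supernatant against both. DESeq2 called 1 (113) for the interaction, against 0 (76) in the reported fit. Leaving out 1 library gave 0 to 1 (2 to 12) for IFNγ at 0.01 ng/ml and 1 to 3 (419 to 944) for TNFα at 0.1 ng/ml. It gave 0 to 2 (60 to 595) for the TNFα doses and 0 to 1 (28 to 106) for the interaction. For the slopes it gave 0 to 6 (43 to 528) with IFNγ, 2 to 6 (460 to 2590) with supernatant at 1/2 and 3 to 6 (674 to 3074) with both cytokines. The cause was not tested. Slopes have no value without slope terms or with 2 durations. Low counts limit USP18 (31 to 656 reads), HERC5 (36 to 193 reads) and UBD in unstimulated cells (0 to 38 reads).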
